A study of Chrysanthemum x morifolium with 6 samples.

Results

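Of the 10744 regulator clusters that the authors sorted into families, 111 belonged to the families that act in gene expression inside chloroplasts and mitochondria. A cluster is a group of assembled transcripts that stands in for a gene. The members were the clusters filed as mTERF, as Sigma70-like or as PBF-2-like (the Whirly proteins), provided that their Swiss-Prot match named a flowering plant or was empty. They comprised 98 of 103 mTERF clusters, 2 of 18 Sigma70-like clusters and all 11 PBF-2-like clusters, and the table held 0 clusters under the family name Whirly. The rule used annotation and no measured value. It left out 5 mTERF clusters with a rat match and 16 Sigma70-like clusters with a bacterial match.

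The RNA came from roots of 1-month-old greenhouse seedlings of Chrysanthemum x morifolium, cultivar jinba. The control group received purified water and the salt group received salt water at 100 mM, and roots were taken 24 h after treatment. Each group held 3 biological replicates, called control 1 to 3 and salt 1 to 3 here, and both groups carried the same strain label. The labels do not name the salt, do not say whether a replicate was 1 plant or a pool, and describe the seedlings as white.

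Both chloroplasts and mitochondria keep small genomes of their own, and most of the proteins that copy, transcribe and process them are encoded in the nucleus. The mTERF family is named after a human mitochondrial transcription termination factor. In plants it is an enlarged family whose members enter mitochondria or plastids and act in termination, splicing and other steps of organelle RNA metabolism. Sigma factors give the bacterial-type plastid RNA polymerase its promoter recognition. Whirly proteins bind single-stranded DNA. In Arabidopsis they help keep organelle genomes intact, WHY1 in plastids and WHY2 in mitochondria, and their potato relative PBF-2 was described as a regulator of a nuclear defence gene. In roots these plastids are mostly non-photosynthetic.

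Depth was 15.9 to 20.1 M fragments (M for mega) in the control libraries and 12.8 to 16.1 M in the salt libraries. The share of regulator counts on clusters whose Swiss-Prot match was not a land plant was 3.97 to 4.01% in control and 7.78% in salt 1, against 11.5% in salt 2 and 11.3% in salt 3. The part of this shift in the results was not tested. Fold changes are given on 1 of 2 scales. The main scale uses a TMM factor (trimmed mean of M-values, a correction for library composition) from all 469059 clusters. The second, called the plant scale, takes that factor from the 6606 regulator clusters with a flowering plant match, not from all plant clusters. It moved the tested regulator clusters' median log2 fold change by 0.51, from -0.37 to 0.14. All values given here over all tested regulator clusters include clusters with a match outside land plants, of which the table held 2295 of 10744. With clusters of a flowering plant match alone, the median on the plant scale was -0.15. Regulator counts made up a mean of 4.75% of depth in control and 4.07% in salt. Being set on regulators alone, the plant scale cannot show a change that most regulators share. The level of a cluster is the deposited FPKM divided by the TMM factor of its library, called scaled FPKM, which is per length and can be compared between clusters. Known root regulators such as SHORT-ROOT and SCARECROW were present. The root markers had summed levels of 93.2 to 98.6 scaled FPKM in control and 57.5 to 69.2 in salt, with 1 of 23 tested clusters higher and 11 lower in salt on the main scale and 1 of 22 higher and 5 lower on the plant scale. Over all tested regulator clusters 23.9% were higher and 29.3% lower on the main scale, and 32.9% and 17.0% on the plant scale. The part of this shift in the values below was not tested, and in bulk tissue fewer cells of a type and less RNA per cell cannot be told apart. The shoot markers summed to 6.83 to 8.06 in control and 4.50 to 10.4 in salt.

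Few members of the 3 families passed the test. Among the mTERF clusters, 52 of 98 were abundant enough to test, and with edgeR (quasi-likelihood F-test, Benjamini-Hochberg adjustment over 5284 regulator clusters, adjusted p under 0.05) 2 rose and 8 fell in salt. Among the 9 tested Whirly clusters 1 rose and 0 fell. Neither of the 2 sigma clusters passed the test. Over all tested regulator clusters 23.9% rose and 29.3% fell, so that the mTERF shares of 3.85% and 15.4% were both below this background. It also holds clusters with a match outside land plants, and the shares without them were not counted. The median of the mean count per library was 24.4 in tested mTERF clusters. The part of such low counts in these shares was not tested. The median log2 fold change was -0.48 for tested mTERF clusters, -0.51 for the sigma pair and 0.20 for tested Whirly clusters, beside -0.37 for all tested clusters.

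**Figure D1:**
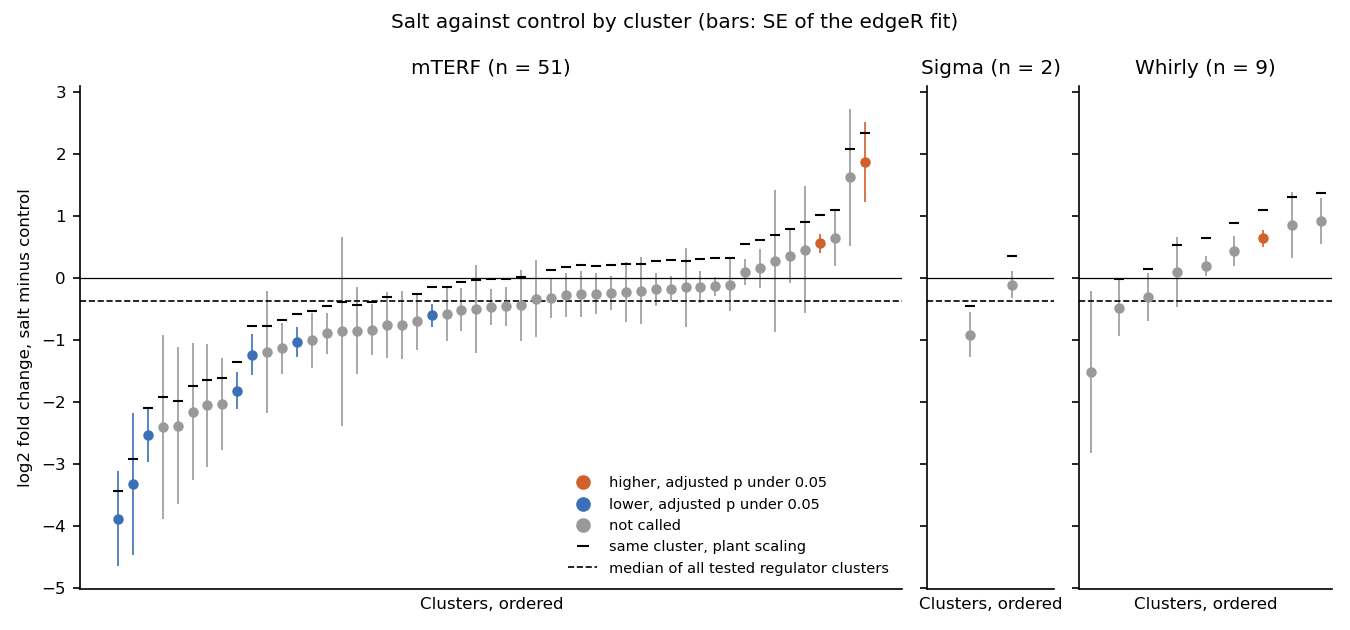
Log2 fold change of salt minus control for each tested cluster, ordered by size within its family. Points are the edgeR estimate on the main scale with its SE, small bars are the same cluster on the plant scale, and the dashed line is the median of all tested regulator clusters. One mTERF cluster without any count in salt is not drawn. Most mTERF points lie below 0 on the main scale and on both sides of 0 on the plant scale, while most Whirly points lie above the dashed line.

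The mTERF family was large and mostly low in these roots. The mean deposited FPKM over the 6 libraries reached 1 in 33 of 98 clusters, and its median was 0.684. Cluster lengths ran from 283 to 5031 bases with a median of 1448.5. Every one of the 98 clusters carried an mTERF domain in its Pfam annotation and a mitochondrion term in its Gene Ontology annotation, so these annotations do not separate members that go to mitochondria from members that go to plastids. For 92 clusters the Swiss-Prot description was empty. The best matches in the NR protein database were 40 distinct proteins from 14 genera of flowering plants, led by Vitis and Nicotiana with 24 clusters each. For 81 clusters that match was an uncharacterized protein, and for 4 it was named as a mitochondrial transcription termination factor. The remaining 6 clusters had a Swiss-Prot match of another kind beside the mTERF domain. There were 4 matched to ABCG15, a membrane transporter of the ABC family, and 2 matched to CIPK23, a protein kinase that in Arabidopsis acts on root potassium and nitrate uptake. Their Pfam annotation names other domains beside mTERF, an ABC transporter domain in the ABCG15-matched clusters and a NAF domain, typical of CIPK kinases, in the CIPK23-matched clusters. Whether these 6 are mTERF genes, joined transcripts of different genes or misfiled clusters cannot be told from the deposited annotation, so their values are also given apart from the rest.

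The pair of CIPK23-matched clusters held the highest levels among the mTERF clusters. Together they made up 28.2% of the summed mTERF level in control and 38.4% in salt. Their sum was 46.5, 49.9 and 46.2 scaled FPKM in control 1 to 3 and 61.9, 55.0 and 55.6 in salt 1 to 3, so that every salt library lay above every control library. The counts summed over both rose by a log2 fold change of 0.28 (± 0.07 SE, adjusted p = 0.0033 by edgeR), where 37.0% of 1604 Swiss-Prot entries rose. Both clusters have almost the same length, 2200 and 2175 bases, and reads may be shared between them.

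Within the pair, Cluster-71316.159360 had 23.7, 29.4 and 22.1 scaled FPKM in control and 42.0, 30.4 and 38.8 in salt. Its groups did not overlap, although control 2 lay within 1 unit of salt 2. It rose by a log2 fold change of 0.56 (± 0.16 SE, adjusted p = 0.021 by edgeR). This call was lost in 4 of the 6 fits that leave out 1 library (control 1, control 3, salt 1 or salt 3), with an adjusted p of up to 0.075. Its partner Cluster-71316.168780 had a mean level of 22.5 ± 1.83 in control and 20.4 ± 3.96 in salt (SD, n = 3). That difference did not pass the test (log2 fold change -0.13 ± 0.15 SE, adjusted p = 0.48 by edgeR), and it turned to 0.32 on the plant scale.

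Most of the called mTERF clusters fell, by very different amounts. Cluster-71316.81065, matched to the uncharacterized pear protein LOC103959136, had 1.72, 1.58 and 2.55 scaled FPKM in control and 0, 0.126 and 0.239 in salt. The groups stood far apart, on 83 counts over the control libraries and 4 over the salt libraries, a ratio of 15.9-fold with a counting interval of 6.0 to 59.9-fold (exact binomial, 95%, counting error only). The fitted log2 fold change was -3.88 (± 0.76 SE, adjusted p = 0.0058 by edgeR). Cluster-71316.156337, matched to an unnamed grapevine protein, went from 3.96, 2.57 and 2.89 to 0.921, 0.387 and 0.322. It fell by 2.53 on the log2 scale (± 0.44 SE, adjusted p = 0.0035 by edgeR). Cluster-71316.85923, matched to the uncharacterized grapevine protein LOC100268158, went from 2.52, 3.64 and 2.71 to 0.837, 0.680 and 1.02. Its salt levels lay close together and all below the lowest control level, and it fell by 1.81 (± 0.30 SE, adjusted p = 0.0030 by edgeR). These 3 clusters also passed on the plant scale, where the log2 fold changes were -3.44, -2.10 and -1.36, and with each library left out in turn.

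Cluster-71316.236794 was the longest member, at 5031 bases, and one of the ABCG15-matched clusters. Its levels were 0.133, 0.258 and 0.280 scaled FPKM in control, and it was at 0 in all 3 salt libraries. Set against a floor of 3 counts over the salt group, its level was at least 15.0-fold lower in salt (edgeR adjusted p = 0.0040). Without control 2 or control 3, and on the plant scale, it did not reach the count filter and was not tested. The counts of all 4 ABCG15-matched clusters together fell by 2.04 (± 0.33 SE, adjusted p = 2.4e-04 by edgeR), where 42.3% of Swiss-Prot entries fell.

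The next mTERF clusters fell by smaller amounts or on fewer counts. Cluster-71316.133127, matched to the uncharacterized grapevine protein LOC100852464, had 3.11, 4.40 and 2.97 scaled FPKM in control and 1.84, 1.49 and 1.84 in salt. It fell by 1.03 (± 0.24 SE, adjusted p = 0.011 by edgeR) and kept its call with each library left out, but not on the plant scale (log2 fold change -0.57, adjusted p = 0.077). Cluster-71316.146533, with the same grapevine match, had 1.05, 0.625 and 1.08 in control, 0.251 in salt 1 and 0 in salt 2 and salt 3. It rested on 93 counts against 7, a ratio of 10.2-fold (counting interval 4.76 to 26.1-fold), and fell by 3.32 (± 1.14 SE, adjusted p = 0.046 by edgeR). Salt 1, the library with the smallest non-plant share in its group, held all of its salt reads. The call held only without salt 1 and was lost with any other library left out (adjusted p of up to 0.13) and on the plant scale (log2 fold change -2.92, adjusted p = 0.073).

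Cluster-71316.120275, matched to a cocoa protein named as a mitochondrial transcription termination factor, had 1.07, 1.28 and 1.16 scaled FPKM in control and 0.387, 0.534 and 0.581 in salt. Every control level lay above every salt level, and the cluster fell by 1.24 (± 0.33 SE, adjusted p = 0.019 by edgeR). It lost the call without control 2 or control 3 (adjusted p of up to 0.073) and on the plant scale (log2 fold change -0.78, adjusted p = 0.10). Cluster-71316.124988, matched to the uncharacterized pear protein LOC103961706, had 5.98, 5.42 and 5.33 in control and 4.0, 3.76 and 3.27 in salt. Its fall of 0.60 (± 0.19 SE, adjusted p = 0.034 by edgeR) was lost in 5 of the 6 fits that leave out 1 library, all but the one without salt 1 (adjusted p of up to 0.12), and with DESeq2 (adjusted p = 0.29), and was -0.15 on the plant scale.

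**Figure D2:**
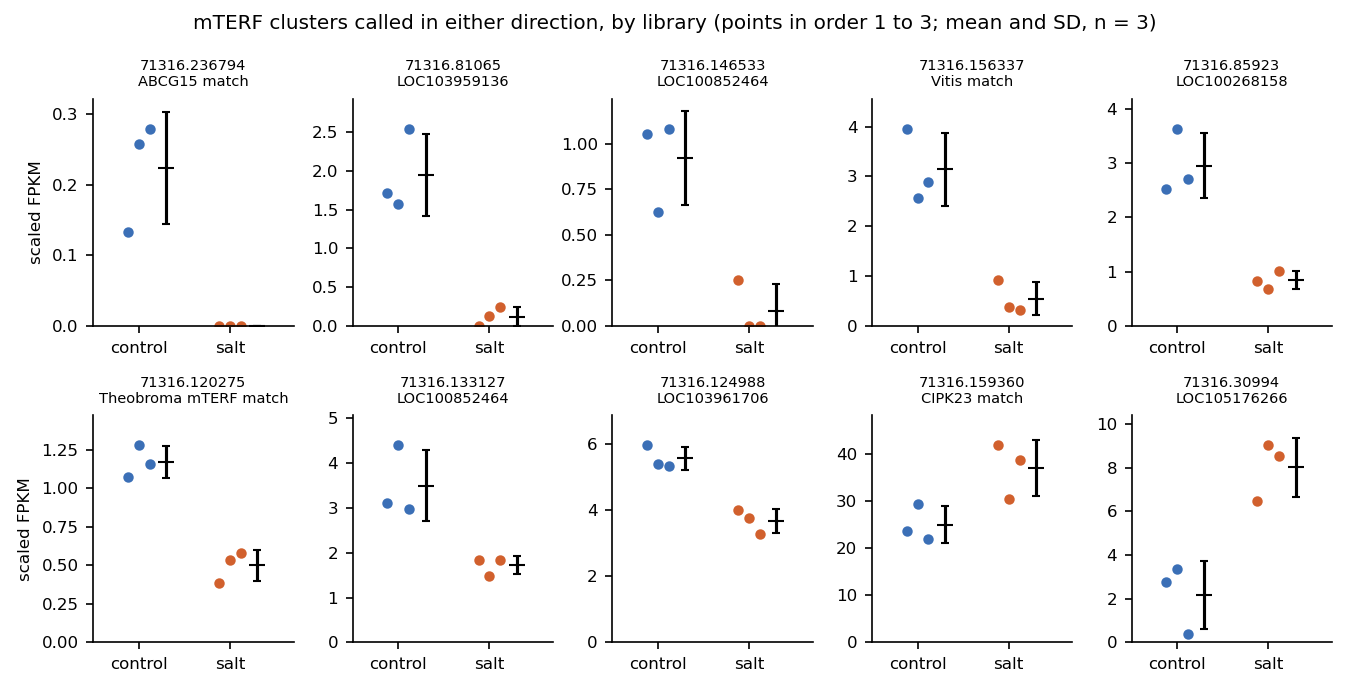
Scaled FPKM of the 10 mTERF clusters that passed the test, with the 3 control and 3 salt libraries as points and the group mean and SD beside them. Each panel has its own axis from 0. The first 8 panels fell and the last 2 rose. Salt and control points do not overlap in any panel, and control 3 stands apart from the other control libraries in the last panel.

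The other mTERF cluster that rose was among the more abundant members, with the highest salt mean outside the CIPK23-matched pair. Cluster-71316.30994, matched to the uncharacterized sesame protein LOC105176266, had 2.77, 3.35 and 0.383 scaled FPKM in control 1 to 3 and 6.49, 9.03 and 8.54 in salt 1 to 3. Control 3 was far below the other control libraries. The cluster rose by a log2 fold change of 1.88 (± 0.65 SE, adjusted p = 0.047 by edgeR), and the call was kept only when control 3 was left out (adjusted p of up to 0.12 in the other 5 fits). It was 2.35 on the plant scale (adjusted p = 0.024).

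Counts were also summed over clusters that share a best NR match, and for LOC105176266 the control values then lay closer together. This summing was chosen after the values were seen. With 4 clusters matched to LOC105176266 added together, control 1 to 3 had 11.4, 10.2 and 10.4 CPM (counts-per-million of the scaled library size) and salt 1 to 3 had 22.7, 20.4 and 21.6. In control 3 the reads lay instead on Cluster-71316.30996, which had 9.22 CPM there and 0.590 on Cluster-71316.30994. The sum rose by a log2 fold change of 1.02 (± 0.10 SE, adjusted p = 1.7e-05 by edgeR), with an adjusted p of at most 0.000311 when any library was left out, and by 1.47 on the plant scale.

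Across the family the 98 mTERF clusters gave 40 such sums, of which 34 could be tested. In edgeR 2 rose and 12 fell, beside 24.6% rising and 45.1% falling of all 2989 sums tested. The other sum that rose was the CIPK23-matched pair. On the plant scale 3 rose and 6 fell. The share over all sums was not counted on that scale, where 32.9% of single clusters rose and 17.0% fell. Among the sums that fell on both scales, that of the unnamed grapevine protein had 12.4, 15.4 and 12.7 CPM in control and 4.85, 2.35 and 3.38 in salt, a fall of 1.94 (± 0.23 SE, adjusted p = 4.8e-05 by edgeR). The sum matched to LOC100852464 went from 10.3, 10.8 and 8.94 to 3.80, 2.76 and 3.66, a fall of 1.55 (± 0.17 SE, adjusted p = 3.4e-05 by edgeR). For the cocoa protein named as a mitochondrial transcription termination factor, 4.80, 6.20 and 5.94 became 2.46, 1.69 and 2.25, a fall of 1.40 (± 0.22 SE, adjusted p = 3.5e-04 by edgeR). In these 3 sums no salt library reached the lowest control library. Clusters with 1 match did not always share a sign: of the 17 matches with at least 2 tested clusters, 5 had clusters on both sides of 0, and in 7 the log2 fold changes spanned more than 1.

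**Figure D3:**
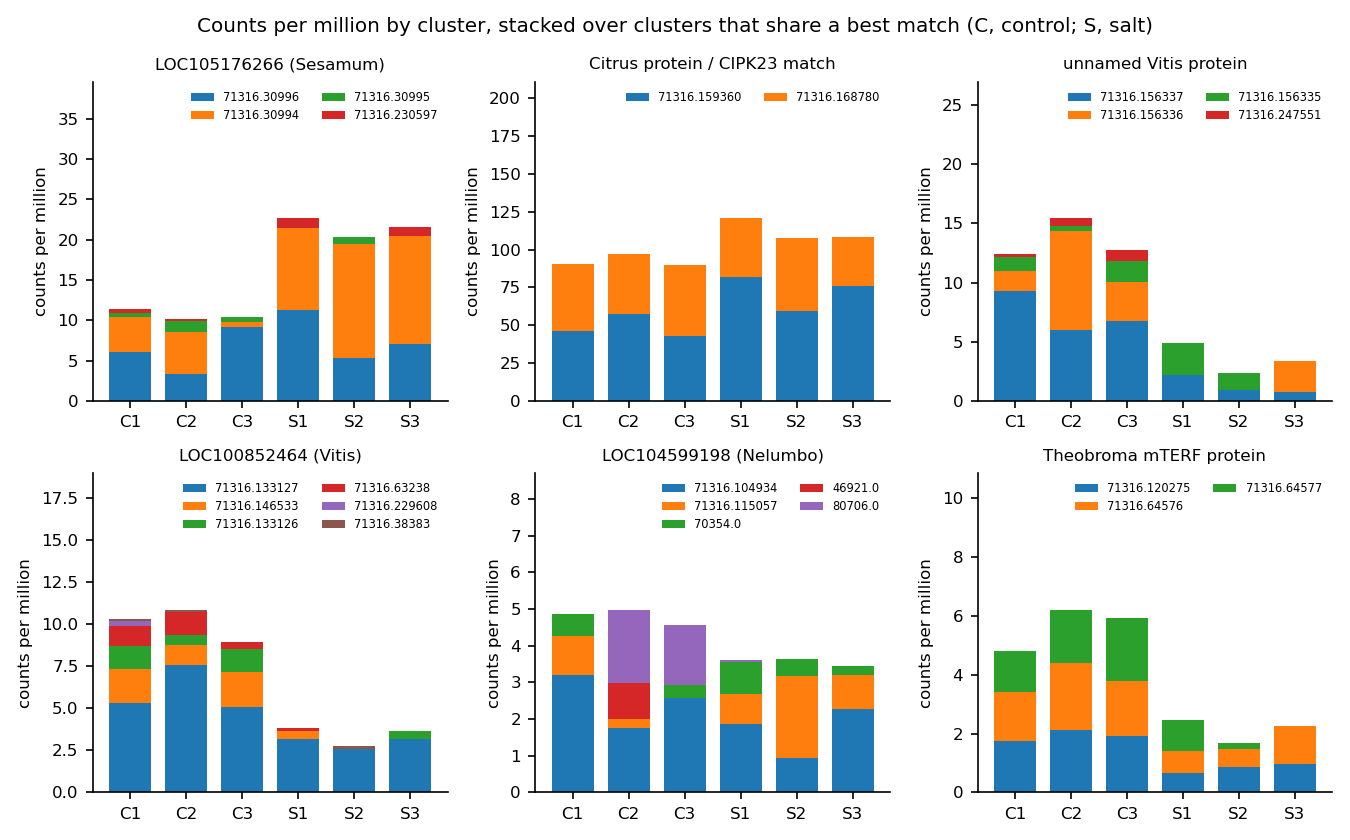
CPM in each library, stacked over the mTERF clusters that share a best NR match, for 6 matches. Colours are clusters. For the sesame match LOC105176266 the clusters change their shares between libraries while the sum is near 10 in control and above 20 in salt; the sums of the unnamed Vitis protein, LOC100852464 and the Theobroma protein are lower in every salt library than in any control library.

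By mean FPKM over all 6 libraries, the highest mTERF clusters without a CIPK23 match were not called. Cluster-71316.41309, matched to another cocoa protein named as a mitochondrial transcription termination factor, averaged 5.69 ± 0.515 scaled FPKM over the control libraries and 5.15 ± 1.53 over the salt libraries (SD, n = 3 each). Its log2 fold change was -0.14 (± 0.25 SE, adjusted p = 0.66 by edgeR) and 0.30 on the plant scale. Cluster-71316.70149, matched to the uncharacterized tobacco protein LOC104216058, had 5.08 ± 1.05 and 5.44 ± 0.471, with a log2 fold change of 0.10 (± 0.21 SE, adjusted p = 0.70 by edgeR). Neither moved beyond the spread of its replicates. The family as a whole summed to 169 ± 5.25 in control and 150 ± 15.3 in salt, and salt 1, at 167, lay inside the control range of 165 to 175. Without the ABCG15-matched and CIPK23-matched clusters, a set chosen after the values were seen, the sum was 119 to 124 scaled FPKM in control and 105, 84.6 and 86.0 in salt. That is a ratio of salt to control of 0.766, and on the plant scale the ratio was 1.05, so that the direction of the summed mTERF level turned with the scaling.

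The same dependence held for the count of directions. On the main scale 9 tested mTERF clusters had a positive and 43 a negative log2 fold change, whereas on the plant scale 23 were positive and 26 negative, with 2 called higher and 3 lower where 32.9% of all tested clusters rose and 17.0% fell. DESeq2 called 2 higher and 8 lower, beside 31.4% and 24.8% of all clusters, with 23 positive and 29 negative. In 15 tested clusters every salt level lay below every control level and in 2 every salt level lay above, while 35 overlapped. Over all tested regulator clusters 39.6% lay wholly below and 27.6% wholly above. Left out singly, salt 1 moved the number that fell the most: without it 16 of 63 tested mTERF clusters were called lower. Without control 2 the number was 5 of 57 tested, and without control 3 it was 5 of 56. The share of all regulator clusters called in these fits was not set beside these counts. The mean count per library was under 50 in 39 of the 52 tested clusters. The other 46 were too low to test, with a mean deposited FPKM of at most 1.075. Of these, 38 had counts in both groups, 6 had counts in control alone, 1 had counts in salt alone and 1 had 0 counts in every library.

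The authors' deposited table calls 1 mTERF cluster UP and 9 DOWN, and no Whirly or sigma member in either direction. Of those, 1 and 5 were called in the same direction here, and 4 did not reach the count filter. The share of all clusters that the authors call UP or DOWN was not counted here, so the 1 and 9 have no background beside them. Another 4 mTERF clusters were called here and not in the authors' deposited table. The WHY2-matched Cluster-71316.247313 has a deposited log2 ratio of 0.71 with a q-value of 0.0075, yet it is not called there. Among the called members the smallest ratio in size was -1.75. The calls here used no fold cut-off, and whether the deposited calls used one was not checked, so the thresholds may differ.

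Matches to the plastid and to the mitochondrial Whirly protein were both found in the roots. There were 6 clusters matched to WHY1, the plastid protein, and 5 matched to WHY2, the mitochondrial protein. Their identity rests on these Swiss-Prot matches and on NR matches to the same proteins, since 0 of the 11 had a Whirly domain in the Pfam annotation. That annotation gave a Doublecortin domain for Cluster-71316.247313 and Cluster-71316.247312, a Cystatin domain for Cluster-71316.116859 and Cluster-71316.116861, and no domain for the others. Their summed level was 34.3, 33.2 and 31.0 scaled FPKM in control 1 to 3 and 38.6, 40.1 and 41.4 in salt 1 to 3. All salt libraries lay above all control libraries.

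The only Whirly cluster called on the main scale was matched to WHY2. Cluster-71316.247313 had 5.63, 5.21 and 5.83 scaled FPKM in control and 8.77, 8.39 and 8.91 in salt. The replicates of each group lay within 1 unit of each other and the groups were clearly apart. It rose by a log2 fold change of 0.64 (± 0.14 SE, adjusted p = 0.0081 by edgeR), and by 1.10 on the plant scale, and it kept the call with every library left out (adjusted p of up to 0.038). A further WHY2 cluster, Cluster-71316.247314, was more abundant in control at 7.69, 7.10 and 7.31 and had 7.71, 8.59 and 9.10 in salt. Salt 1 lay at the level of control 1 to within 0.1 unit, and the difference did not pass (log2 fold change 0.20 ± 0.16 SE, adjusted p = 0.35 by edgeR). It passed on the plant scale, at 0.66. Cluster-71316.247312 had 1.41, 2.56 and 1.39 in control and was at 0 in salt 1 and salt 2 but at 1.97 in salt 3, so its groups overlapped (log2 fold change -1.52 ± 1.31 SE, adjusted p = 0.36 by edgeR). Without salt 3 it was called lower (adjusted p = 0.012), with both remaining salt libraries at 0. The remaining 2 WHY2 clusters were too low to test. Counts summed over all 5 WHY2 clusters rose by a log2 fold change of 0.36 (± 0.11 SE, adjusted p = 0.012 by edgeR), by 0.82 on the plant scale, and stayed called with each library left out (adjusted p of up to 0.045). In that fit on the main scale 37.0% of 1604 Swiss-Prot entries rose.

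None of the 6 WHY1 clusters passed the test on the main scale. Cluster-71316.261914, the most abundant, had 8.59, 7.23 and 5.39 scaled FPKM in control and 9.31, 10.8 and 8.47 in salt, where the lowest salt library lay just below the highest control library. Its log2 fold change was 0.44 (± 0.24 SE, adjusted p = 0.17 by edgeR). Cluster-71316.41452 had 1.29, 2.36 and 1.57 in control and 3.24, 3.50 and 3.12 in salt. Its groups did not overlap, with a log2 fold change of 0.92 (± 0.37 SE, adjusted p = 0.077 by edgeR). Both passed on the plant scale, where 32.9% of all tested regulator clusters rose. They share 1 NR match, and their summed counts rose on the main scale by 0.54 (± 0.19 SE, adjusted p = 0.029 by edgeR). Among all 2989 NR sums tested, 24.6% rose. In this sum, a kind chosen after the values were seen, every salt library lay above every control library. It rose by 0.99 on the plant scale (adjusted p = 0.0013 by edgeR). With 1 library left out its adjusted p ran from 0.032 to 0.11. With DESeq2 the whole family had 4 clusters called higher instead of 1. Over all tested regulator clusters the share called higher was 31.4% with DESeq2 and 23.9% on the main scale.

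The 4 other WHY1 clusters shared 1 NR match, and their log2 fold changes had both signs without passing. Cluster-71316.201067 had 3.61 ± 0.578 in control and 2.92 ± 1.20 in salt (SD, n = 3), and Cluster-71316.116860 had 3.00 ± 0.530 and 2.12 ± 1.28. Cluster-71316.116859 had 1.23 ± 0.366 and 2.26 ± 1.35, and Cluster-71316.116861 had 1.06 ± 0.702 and 1.14 ± 0.430. In each of the 4 the groups overlapped. In salt 2, Cluster-71316.201067 was at 1.54 scaled FPKM and Cluster-71316.116860 at 3.60, whereas in salt 1 they were at 3.58 and 1.35. Added together, the 4 clusters had 8.58 ± 0.176 CPM in control and 8.50 ± 1.36 in salt, a log2 fold change of -0.02 (± 0.15 SE, adjusted p = 0.92 by edgeR). On the plant scale the sum of these 4 rose by 0.44 (adjusted p = 0.026 by edgeR). The counts of all 6 WHY1 clusters gave a log2 fold change of 0.20 (± 0.11 SE, adjusted p = 0.11 by edgeR) on the main scale and 0.66 (adjusted p = 3.5e-04) on the plant scale.

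**Figure D4:**
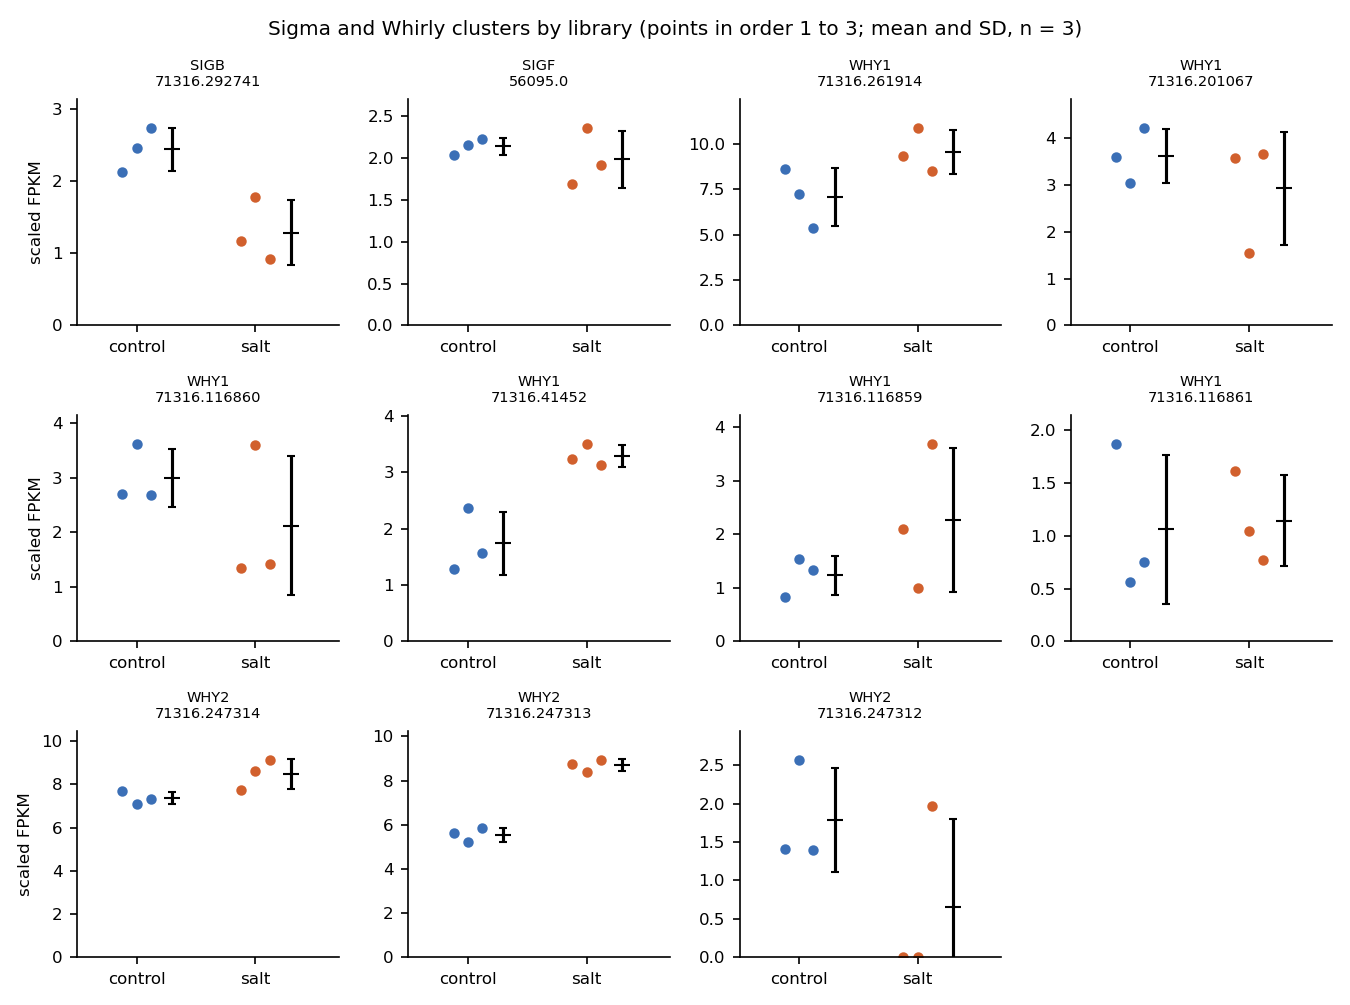
Scaled FPKM of the 2 sigma clusters and the 9 tested Whirly clusters in each library, with the group mean and SD (n = 3) beside the points. Each panel has its own axis from 0. In WHY2 Cluster-71316.247313 and WHY1 Cluster-71316.41452 the salt points lie above all control points, and in SIGB all salt points lie below the control points.

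The sigma factors were present as a single cluster each. SIGB is 1 of the plastid sigma factors, which in Arabidopsis serves the transcription of some plastid tRNA genes, and SIGF is needed in Arabidopsis for early chloroplast development in seedlings. The SIGB-matched Cluster-71316.292741 had 2.13, 2.46 and 2.73 scaled FPKM in control and 1.16, 1.78 and 0.913 in salt. Every salt level lay below every control level. In the fit over clusters this did not pass (log2 fold change -0.91 ± 0.37 SE, adjusted p = 0.076 by edgeR), while in the fit over Swiss-Prot entries, with the same 106 control and 44 salt counts, it passed (-0.90 ± 0.33 SE, adjusted p = 0.029 by edgeR). In the fit over entries 42.3% of 1604 fell. The SIGB call there was lost without control 2, control 3, salt 1 or salt 3 (adjusted p of up to 0.093), and on the plant scale the log2 fold change was -0.44 (adjusted p = 0.26).

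The SIGF-matched Cluster-56095.0 had 2.03, 2.16 and 2.23 scaled FPKM in control and 1.69, 2.35 and 1.92 in salt. Salt 2 exceeded all control libraries and the other salt libraries lay below them. The log2 fold change was -0.11 (± 0.22 SE, adjusted p = 0.70 by edgeR), and it changed sign to 0.35 on the plant scale. At an unadjusted p under 0.05, 1 of the 2 sigma clusters was lower in edgeR, and DESeq2 called 0 with 0 at an unadjusted p under 0.05. For the Whirly clusters 0 were lower at that unadjusted threshold in edgeR or DESeq2.

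Other regulators of organelle function were counted from the same fit, where 23.9% of all tested clusters rose and 29.3% fell on the main scale and 32.9% rose and 17.0% fell on the plant scale. Of 12 tested clusters matched to regulators of plastid biogenesis, 3 rose and 2 fell on the main scale, and all 5 were matched to GLK1, a driver of chloroplast development genes. On the plant scale 5 of 11 rose and 1 fell. On the main scale the summed level of the 6 GLK1 clusters averaged 16.3 ± 0.418 scaled FPKM over the control libraries and 11.7 ± 0.290 over the salt libraries (SD, n = 3 each). It was lower in every salt library although more GLK1 clusters rose than fell. The GLK1 sum was not taken on the plant scale, where 3 of 5 tested GLK1 clusters rose and 1 fell. Of 30 tested clusters of organelle-to-nucleus signalling, 2 rose and 13 fell on the main scale, and 6 rose and 10 fell on the plant scale. All 7 tested clusters of NAC017, a membrane-bound factor that in Arabidopsis carries signals from stressed mitochondria to the nucleus, were among those that fell. The summed level of its 14 clusters was 243, 280 and 253 scaled FPKM in control and 64.0, 60.0 and 82.2 in salt, and 6 of the 7 tested also fell on the plant scale. The 2 tested clusters of NAC053 fell on both scales. Of 10 tested clusters of NAC078, 0 rose and 4 fell on the main scale, and 2 rose and 2 fell on the plant scale. The clusters that rose on the main scale were 1 of 5 tested of WRKY40 and 1 of 6 tested of WRKY15, stress-responsive WRKY factors. Their median log2 fold changes were 0.057 for WRKY40 and -0.16 for WRKY15. On the plant scale 2 of 5 tested clusters of each rose. The summed level of WRKY40 was 160, 161 and 146 scaled FPKM in control and 275, 245 and 236 in salt, and that of WRKY15 was 107, 104 and 98.2 in control and 138, 135 and 127 in salt. Of 41 tested clusters in other families whose match names a chloroplastic or mitochondrial protein, 5 rose and 13 fell on the main scale, and 5 rose and 7 fell on the plant scale.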

How the data were processed

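RNA from 6 root libraries, 3 control and 3 salt, was analysed per cluster. The authors deposited expected counts (estimated counts, 49.3% not whole), FPKM, a Swiss-Prot match score, a log2 ratio and a q-value of salt against control for regulator clusters, per the file headers, and FPKM for 469059 clusters. Bowtie2 2.0.6 and TopHat2 2.0.12 are listed, with no role, per the submitters' processing notes. Not given in the sources used here are the assembler, the counter, the use of strand and the tool behind the deposited ratio and q-value.

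The count table covers regulator clusters alone, so depth was taken as the slope of count over FPKM on cluster length, for clusters of at least 200 counts and 1000 bases. After rounding to whole numbers, counts were tested with edgeR 4.0.16 in R 4.3.3 (quasi-likelihood F-test, filterByExpr), with depth times TMM factors as library size. P-values were adjusted by Benjamini-Hochberg over all 5284 tested clusters. SE values are those implied by the F statistic. A second fit used counts summed per Swiss-Prot entry, and another, added after seeing the values, counts summed per NR match. Alternatives were DESeq2 1.42.0, limma 3.58.1 on log2(FPKM + 1) and log2(FPKM + 0.1), other scalings, filters and members, a replicate block and each library left out. The edgeR script was first tested on simulated data.

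The labels number the replicates within each group. The correlation of deviations between same-numbered libraries was under 0.1 in every pair, so the numbers were not taken to pair libraries. The members, gene lists and comparisons were chosen with earlier results of these data known. Clusters named were the tested sigma and Whirly clusters with a mean FPKM of at least 1, and for mTERF the 5 with the highest mean FPKM, up to 10 called clusters with the largest and 5 with the smallest change, and in each family the 3 highest in any 1 library. Cluster-71316.30996 was named after its values were seen. Similar clusters may be copies, alleles or fragments of 1 gene, and may share reads. No sequence or genome position is given, since no reference was used here.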

Additional observations from a re-analysis of the deposited data

Results flagged for a closer look

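The 16 Sigma70-like clusters with a bacterial Swiss-Prot match, which were not members, gave a signal outside the comparisons above. Their summed level was 0.276, 0.149 and 0.551 scaled FPKM in control 1 to 3 and 5.17, 8.10 and 8.38 in salt 1 to 3, a mean of 0.325 ± 0.206 against 7.22 ± 1.78 (SD, n = 3). They held 8 counts over the control libraries and 241.68 over the salt libraries, and 14 of the 16 were at 0 in every control library. Every salt library lay above every control library. In the same libraries the share of regulator counts on clusters with a match outside land plants was 3.97 to 4.01% in control and 7.78 to 11.5% in salt.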

How the results depend on the processing

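The number of mTERF clusters that rose, 2 in the main result, was 1 with no composition factor, plant clusters alone, no filter, limma on log2(FPKM + 1), members with a flowering plant match alone, or without the ABCG15 and CIPK23 matches. The last, and the sums per NR match, were chosen after seeing the data. It was 0 with the replicate block or limma on log2(FPKM + 0.1), and 0 to 1 with 1 library left out. The number that fell, 8 of 52 tested, was 4 of 49 under DESeq2 size factors or column sums, and 4 of 52 with the replicate block. It was 3 of 49 on the plant scale, where 17.0% of all tested clusters fell against 29.3% in the main result. With 1 library left out it was 5 to 16, with 56 to 65 tested. It was 0 of 4 tested with plant clusters alone and 1 of 5 tested among members with a flowering plant match. These settings hold only the 6 ABCG15-matched and CIPK23-matched mTERF clusters, so they cannot show whether calls among the other 92 hold. For the other settings the share of all clusters called was not set beside the mTERF counts. Sigma clusters that fell numbered 1 with no composition factor or summed per NR match, and 0 to 1 with 1 library left out. Whirly clusters that rose numbered 4 with DESeq2, DESeq2 size factors, the plant scale or plant clusters alone. They numbered 3 with column sums and 2 summed per NR match. Over all tested clusters 31.4% rose with DESeq2 and 32.9% on the plant scale, against 23.9% in the main result. Whirly clusters that fell numbered 0 to 1 with 1 library left out. The sum for WHY1 was 0.66 and for SIGB -0.44 on the plant scale, and SIGB ran from -1.22 to -0.72 with 1 library left out, where 4 of 6 fits lost the call. The sum for SIGF turned to 0.35 on the plant scale and ran from -0.25 to 0.0071 with 1 library left out.

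Among named clusters that passed no test, the sign turned as follows. Cluster-71316.201067 was 0.0068 with DESeq2, 0.0085 with its size factors, 0.14 on the plant scale and with plant clusters alone, and -0.50 to 0.0069 with 1 library left out. Cluster-71316.116861 was -0.031 with no composition factor and -0.24 to 0.78 with 1 library left out. Cluster-71316.41309 was 0.18 with DESeq2, 0.17 with its size factors, 0.14 with column sums and 0.30 on the plant scale. Cluster-71316.168780 was 0.19 with DESeq2 and with its size factors, 0.15 with column sums and 0.32 on the plant scale and with plant clusters alone. Cluster-71316.70149 was -0.024 with no composition factor, -0.041 to 0.25 with 1 library left out, and -0.0082 and -0.0069 with limma at pseudocounts of 1 and 0.1. Cluster-56095.0 was 0.22 with DESeq2 and its size factors, 0.18 with column sums, 0.35 on the plant scale and with plant clusters alone, and -0.25 to 0.00041 with 1 library left out. The cause of these changes was not tested, and each scaling moves all clusters by about the same amount.

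With the replicate block, 4 of the 10 called mTERF clusters kept their call. The numbers are not taken to pair libraries, since same-numbered libraries had correlations of deviations of 0.037, 0.030 and 0.014, and each control library correlated best with the salt library of its number. Over 24 named clusters and their alternatives, 295 values kept direction and side of the threshold, 45 lost a call, 18 gained one and 28 turned sign. Of the mTERF clusters, 46 of 98 were too low to test.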
